A study of Mus musculus with 12 samples.

Results

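The genes described here are 10 members of the PARP family, the ADP-ribosyltransferases that use NAD as their substrate. They are Parp1, Parp2, Parp3, Parp4, Parp8, Parp9, Parp10, Parp12, Parp14 and Tnks, and they were chosen by name. All 10 were found among the 23420 genes of the deposited count table, and all 10 passed the filter on low counts that kept 9742 genes for testing. The study compared monocytic myeloid-derived suppressor cells (M-MDSCs), an immature myeloid population that can become osteoclasts, between aged and young mice. RNA was sequenced from M-MDSCs sorted as CD11b+Ly6G-Ly6Chi from the bone marrow of male C57BL/6JNIA mice, with 1 library for each mouse and no treatment in either group. The aged group held 6 mice of 24 months and the young group 6 mice of 6 months. Levels are given as CPM, counts scaled to a common library total with TMM normalization, and fold changes as log2 of aged over young.

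PARP enzymes cleave NAD, release nicotinamide and attach the ADP-ribose to proteins, to nucleic acids or to a growing chain of ADP-ribose. PARP1 and PARP2 bind broken DNA and build such chains, PARP3 adds ADP-ribose units singly at double-strand breaks, and the tankyrases modify the proteins they bind, among them axins. PARP4 belongs to the vault, a large ribonucleoprotein particle. PARP9, PARP10, PARP12 and PARP14 are known as interferon-inducible family members in macrophages and other cells. Together with CD38 and the sirtuins, these enzymes make up most of the known NAD consumption of a cell.

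In aged M-MDSCs, 4 of the 10 PARP genes fell, namely Parp4, Parp8, Parp14 and Tnks, and 2 rose, namely Parp9 and Parp12 (edgeR quasi-likelihood test, adjusted p under 0.05). Parp1, Parp2, Parp3 and Parp10 did not pass the test. Among all genes tested, 45.4% were called, 23.0% lower and 22.4% higher, so 6 of 10 members called, 4 lower and 2 higher, are to be read beside a large background, and the share called higher lies near it. The median log2 fold change was -0.23 over the members and 0.01 over all genes tested. The largest change was the fall of Parp8, by 36.8%. The falls of Parp4, Parp8, Parp14 and Tnks kept their calls when any of the 12 mice was left out, but with an offset for gene length Parp4 and Parp14 were not called, at -0.02 and 0.07, and Tnks was called at -0.18 in place of -0.47. The rises were less stable, since Parp9 kept its call in 7 and Parp12 in 4 of the 12 fits that left out a mouse, and both were lost without aged mouse 5.

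**Figure D1:**
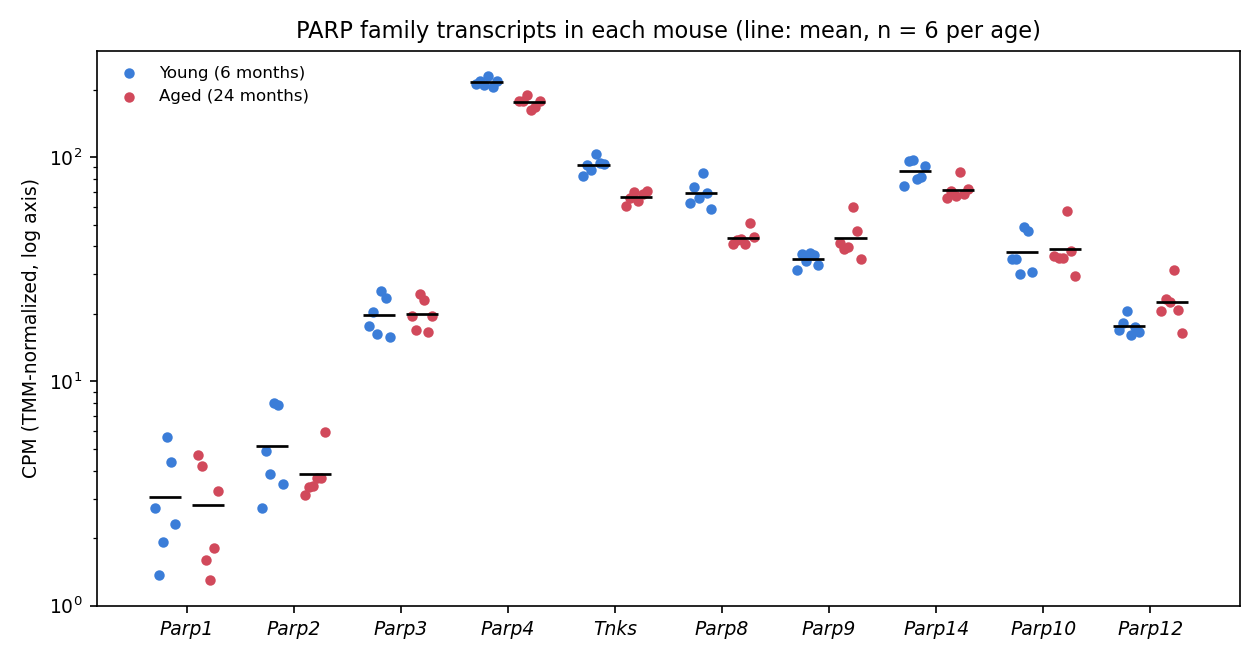
TMM-normalized CPM of each PARP gene in each mouse, on a log axis. Each point is 1 mouse and the black line is the group mean. For Parp4, Tnks and Parp8 the young mice all lie above the aged mice, and aged mouse 5 is the highest aged point of Parp9, Parp14, Parp10 and Parp12.

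The libraries held 8737941 to 16300374 counts in aged and 4613239 to 9079237 in young mice. A few libraries stood apart. Aged mouse 5 had the highest interferon-stimulated expression, with a mean log2 CPM of 5.75 over 33 such genes against 4.57 to 4.92 in the other 11 mice. Aged mouse 1 carried the most macrophage marker RNA, at 1033 CPM summed over the list against 57.0 to 323 in the other aged mice and 47.5 to 64.6 in young mice. All 8 macrophage markers tested were called higher in aged mice. Young mice 5 and 6 had the highest summed level of replication and mitosis genes, at 1747 and 1746 CPM, and the lowest of neutrophil marker genes, at 76486 and 77136 CPM. The summed neutrophil list was 119917 to 142809 CPM in aged and 76486 to 120100 CPM in young mice, and 8 of its 11 tested genes were called higher and 0 lower. The monocyte list spanned 11957 to 19203 CPM, with 3 of 9 genes called higher and 1 lower. The largest part of that sum was Lyz2, at 11221.5 CPM in aged and 12345.3 CPM in young mice. Ccr2, Csf1r, Cx3cr1 and Fcgr1 stood at 31.2, 141, 5.94 and 4.19 CPM in aged mice. In young mice they stood at 37.1, 134, 10.1 and 2.89 CPM. The neutrophil sum exceeded the monocyte sum in every library. In bulk RNA, a change in the mix of cells and a change in RNA per cell cannot be told apart. Of the markers of the sort, Itgam (CD11b) stood at 2895 CPM in aged and 3376 CPM in young mice and Ly6c2 at 727 and 500 CPM, while Ly6g was not analysed here. Dendritic, T and NK, B cell, erythroid and basophil lists each summed to 37.9 CPM or less in every library, with Hba-a1, Hba-a2 and Cd8a listed at 0 in all of them, and Hba-a1 and Hba-a2 are near-identical copies that the filter on alignment quality can remove. The erythroid list was higher in every aged mouse, at 0.739 to 5.24 CPM, than in any young mouse, at 0.116 to 0.473 CPM. The plasma cell list summed to 134 to 247 CPM in aged and 110 to 162 CPM in young mice, and the stromal list to 19.2 to 105 and 10.5 to 20.7 CPM, with 1 of 3 and 2 of 3 tested genes called higher. The part of these differences in the PARP results was not tested, beyond the fits without the libraries named.

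The promoter of a PARP gene can carry the site through which interferon acts, so the windows around the start sites were read before the levels are given. RefSeq windows on GRCm38.p6, from 250 bases before to 50 bases after the start of a transcript, were found for 6 of the 10 genes: Parp1, Parp2, Parp3, Parp4, Parp8 and Parp12. The interferon-stimulated response element, ISRE, was searched on both strands as GAAA, any 2 bases, GAAA. It is present in 3.44% of 32851 windows of this length. Parp4 was the 1 member of the 6 with a match. The Parp4 window is chr14:56575369-56575668 on the plus strand, and the capitals mark 2 matches, GAAAAAGAAA and GAAAGTGAAA, which overlap and start 150 and 144 bases before the transcript start. The Parp12 window, chr6:39118300-39118599 on the minus strand, is shown beside it because Parp12 rose while holding none of these letters. The window of Dtx3l, chr16:35938978-35939277 on the minus strand, is shown because Dtx3l encodes the ubiquitin ligase partner of PARP9 and starts head to head with Parp9, and it also holds no match.
Parp4: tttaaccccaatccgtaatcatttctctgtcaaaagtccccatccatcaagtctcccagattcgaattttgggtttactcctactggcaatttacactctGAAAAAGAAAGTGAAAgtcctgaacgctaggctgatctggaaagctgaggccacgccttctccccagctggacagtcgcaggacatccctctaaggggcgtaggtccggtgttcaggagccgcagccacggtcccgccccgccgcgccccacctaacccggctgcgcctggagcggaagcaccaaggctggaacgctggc
Parp12: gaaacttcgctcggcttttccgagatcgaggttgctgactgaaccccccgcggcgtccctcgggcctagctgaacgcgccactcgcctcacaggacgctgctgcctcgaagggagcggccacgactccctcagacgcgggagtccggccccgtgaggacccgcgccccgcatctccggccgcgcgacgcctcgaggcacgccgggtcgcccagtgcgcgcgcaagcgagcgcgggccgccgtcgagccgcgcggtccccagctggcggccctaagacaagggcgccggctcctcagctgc
Dtx3l: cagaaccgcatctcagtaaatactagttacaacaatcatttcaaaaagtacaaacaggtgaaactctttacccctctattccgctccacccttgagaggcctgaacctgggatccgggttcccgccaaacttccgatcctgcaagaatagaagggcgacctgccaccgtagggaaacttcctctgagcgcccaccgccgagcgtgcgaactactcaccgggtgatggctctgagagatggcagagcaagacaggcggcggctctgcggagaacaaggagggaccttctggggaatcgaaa
No member window held the STAT site, TTC, any 3 bases, GAA, which is present in 8.30% of all windows, or the E2F sites TTTGGCGC and TTTCCCGC, present in 1.56%. A match is only a run of letters, and its absence says nothing on sites outside these 300 bases.

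Among the members that act at DNA breaks, none passed the test in all 12 mice at full depth. Parp1, at chr1:180568975-180601254 with an exon length of 3827 bases, encodes the main sensor of strand breaks. Its level was 1.29 CPM in the lowest, 2.53 CPM in the median and 4.68 CPM in the highest aged mouse, and 1.37, 2.52 and 5.64 CPM in the young mice. The groups overlapped along their whole range, and the log2 fold change was -0.19 ± 0.37 (SE) with an adjusted p of 0.694. These values rest on 7 to 52 counts per library. Parp2 (chr14:50807946-50821300), the second break-activated enzyme, had 3.12, 3.56 and 5.95 CPM in the lowest, median and highest aged mouse and 2.72, 4.37 and 8.03 CPM in the young, from 18 to 95 counts. Its log2 fold change was -0.41 ± 0.27 (SE) with an adjusted p of 0.230. Thinned at random to the smallest library total, in a draw that was not repeated, it was called, at -0.68 (adjusted p = 0.0482). The 2 highest young values of Parp1, 5.64 and 4.38 CPM, and of Parp2, 8.03 and 7.84 CPM, were those of young mice 5 and 6, the libraries with the most replication and mitosis RNA. Without these 2 mice the log2 fold changes turned to 0.37 for Parp1 and 0.08 for Parp2, neither called.

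Parp3 (chr9:106470353-106476651), which encodes the enzyme that marks double-strand breaks, had the values most alike between the ages, with a mean of 20.04 ± 3.21 CPM (SD, n = 6) in aged and 19.8 ± 3.91 CPM in young mice. Aged mice ran from 16.7 to 24.6 CPM and young mice from 15.8 to 25.2 CPM. Its log2 fold change of 0.01 ± 0.14 (SE) had an adjusted p of 0.961.

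The largest of the vault and tankyrase members fell in aged mice. Parp4 (chr14:56575619-56659798, 35 exons) encodes the vault poly(ADP-ribose) polymerase and was the most abundant member. It stood at 162, 178 and 190 CPM in the lowest, median and highest aged mouse and at 206, 215 and 230 CPM in the young. Every aged mouse was below every young mouse, a separation found in the lower direction for 12.1% of all genes tested and for 3 members. In the higher direction 9.68% of all genes and none of the members were so separated. The log2 fold change was -0.30 ± 0.06 (SE) with an adjusted p of 8.19e-04, and -0.02 (adjusted p = 0.839) with the gene length offset. Aged mouse 5, the mouse with the most interferon-stimulated RNA, had the lowest Parp4 level of all 12.

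Tnks (chr8:34829179-34965690), encoding tankyrase 1, which modifies axin and telomere proteins, stood at 60.3, 67.2 and 70.5 CPM in the lowest, median and highest aged mouse and at 82.4, 92.5 and 103 CPM in the young. Again no aged mouse reached the lowest young mouse. Its log2 fold change was -0.47 ± 0.07 (SE) with an adjusted p of 1.23e-04, and -0.18 (adjusted p = 0.0390) with the gene length offset.

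Parp8 (chr13:116854824-117025516), a little-studied enzyme that adds ADP-ribose units singly, changed most. The lowest, median and highest aged mice had 40.9, 42.9 and 50.6 CPM, and the young mice 59.0, 67.4 and 85.1 CPM. The groups did not overlap. Its log2 fold change was -0.66 ± 0.09 (SE) with an adjusted p of 8.59e-05, and it lay between -0.59 and -0.70 when each mouse was left out in turn.

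Among the interferon-inducible members, Parp9 and Parp12 rose, Parp14 fell and Parp10 was not called. Parp9 and Parp14 are neighbours on chromosome 16, at chr16:35938470-35972621 and chr16:35832878-35871382, on opposite strands, and their proteins are known to act together in macrophages. Parp9 stood at 35.3, 40.7 and 59.98 CPM in the lowest, median and highest aged mouse and at 31.2, 35.6 and 37.4 CPM in the young. The groups overlapped, since aged mouse 7 lay within the young range. The log2 fold change was 0.32 ± 0.11 (SE) with an adjusted p of 0.0319. Dtx3l, whose protein pairs with PARP9, rose from 73.3 ± 5.20 CPM in young to 94.2 ± 17.2 CPM in aged mice, with a log2 fold change of 0.36 ± 0.10 (SE) and an adjusted p of 0.0094. Dtx3l is named after its values were seen, and it was at 0.28 and not called without young mice 5 and 6 (adjusted p = 0.0644). The exons of Parp9 and Dtx3l share 334 bases on opposite strands, and the counting used strand.

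Parp14, the largest transcript of the 10 with an exon length of 7251 bases, encodes a regulator of STAT6 signalling. It had 65.9, 69.6 and 85.9 CPM in the lowest, median and highest aged mouse and 74.1, 86.3 and 97.3 CPM in the young. Only aged mouse 5 reached into the young range. Its log2 fold change was -0.27 ± 0.09 (SE) with an adjusted p of 0.0183, opposite in sign to those of Parp9 and Parp12. With the gene length offset it was 0.07 (adjusted p = 0.628), no longer opposite, and with only the 3 aged mice whose alignment file numbers, 24 to 26, follow a gap it was -0.18 (adjusted p = 0.216).

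Parp12 (chr6:39086412-39118349), encoding a zinc finger antiviral enzyme, rose. The lowest, median and highest aged mice had 16.4, 21.6 and 31.5 CPM, and the young mice 16.2, 17.2 and 20.6 CPM. Aged mouse 7 lay near the bottom of the young range. Its log2 fold change was 0.35 ± 0.13 (SE) with an adjusted p of 0.0398. Parp10 (chr15:76232995-76243440), an enzyme that adds ADP-ribose units singly and binds ubiquitin, did not pass the test, with 29.4, 35.9 and 57.8 CPM in aged and 30.2, 35.1 and 48.8 CPM in young mice and a log2 fold change of 0.03 ± 0.16 (SE, adjusted p = 0.901). Its 2 high young values were again young mice 5 and 6, and its high aged value was aged mouse 5.

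Aged mouse 5 had the highest level of its age in Parp9, Parp10, Parp12 and Parp14. Without it, the log2 fold change was 0.21 for Parp9 (adjusted p = 0.0674), 0.23 for Parp12 (adjusted p = 0.0888), -0.12 for Parp10 and -0.33 for Parp14 (adjusted p = 0.00564), so the rises were no longer called and the fall of Parp14 was. Without aged mice 1 and 5 and, separately, without young mice 5 and 6, no member was called higher and the same 4 members were called lower. Of all genes, 17.5% were called higher and 17.8% lower in the first fit, and 14.1% and 17.9% in the second. These 2 fits were chosen after the data were seen.

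**Figure D2:**
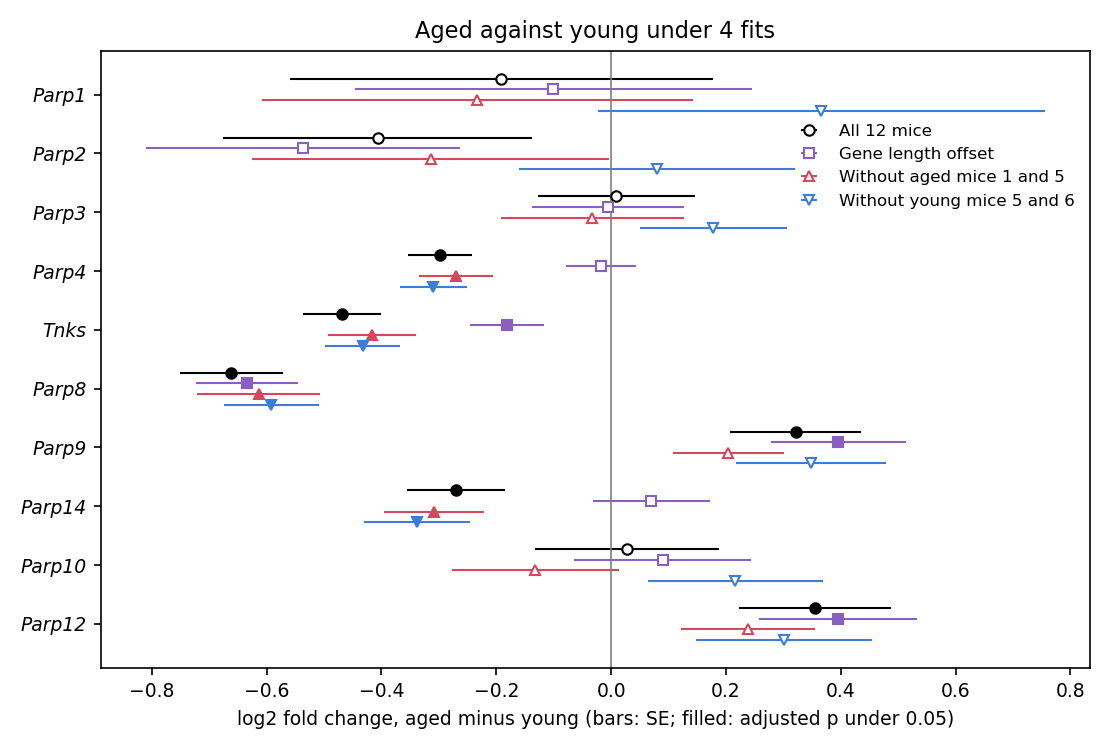
Log2 fold change of each PARP gene, aged minus young, in 4 edgeR fits; bars are standard errors and filled symbols have an adjusted p under 0.05. Parp8 and Tnks stay filled and below 0 in all 4, Parp4 and Parp14 move to near 0 with the gene length offset, and Parp9 and Parp12 lose their fill without aged mice 1 and 5.

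Within an age, each of the 4 interferon-inducible members was set against the mean log2 CPM of the 33 interferon-stimulated genes. In the 6 aged mice, Pearson's r was 0.92 for Parp9 (exact permutation p = 0.0194), 0.97 for Parp10 (p = 0.0139), 0.90 for Parp12 (p = 0.00972) and 0.90 for Parp14 (p = 0.108), in 2-sided tests. Spearman's rho was 0.66, 0.66, 0.83 and 0.37, with exact permutation p of 0.175, 0.175, 0.0583 and 0.497. Over the 8 relations tested, the smallest adjusted p was 0.0519 for r and 0.28 for rho. Leaving out aged mice 5 and 7, the 2 farthest from the median of the interferon mean, r was 0.17, 0.29, 0.21 and 0.88 in the same order. The relation of Parp9, Parp10 and Parp12 therefore rested on those 2 mice. For Parp14, r was -0.20 without aged mouse 5 alone. In the 6 young mice, r was -0.20, -0.47, 0.30 and 0.49 for Parp9, Parp10, Parp12 and Parp14, with exact permutation p from 0.268 to 0.690 for r and from 0.103 to 0.497 for rho, where the interferon mean spanned only 4.57 to 4.70. Leaving out young mice 9 and 5, r was 0.39, 0.12, 0.62 and 0.37.

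**Figure D3:**
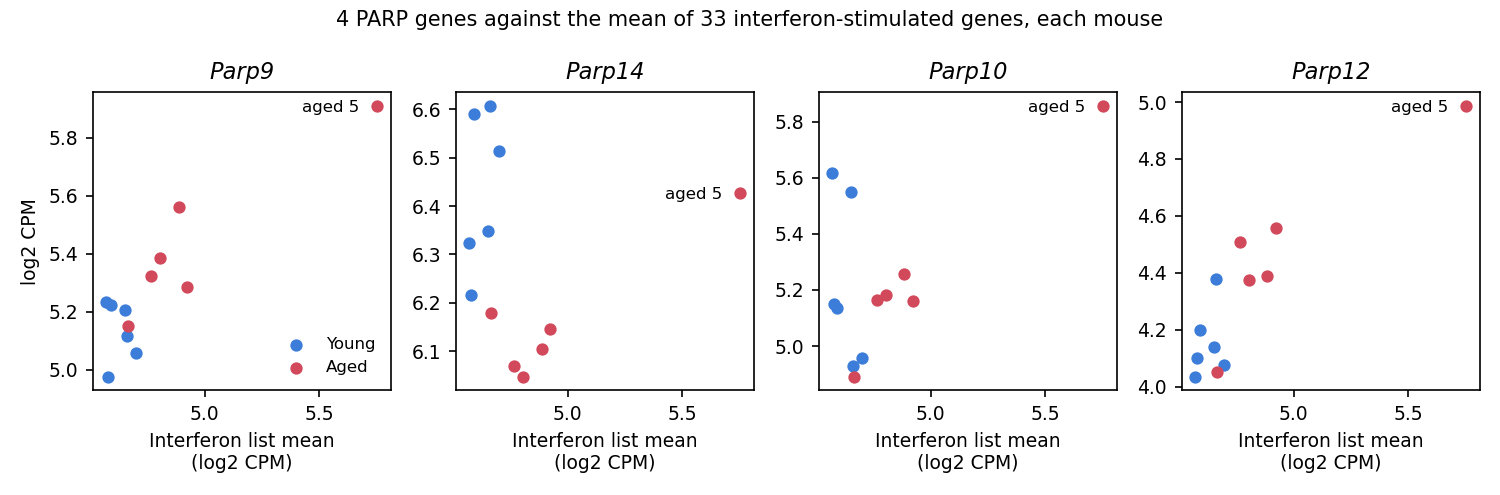
Log2 CPM of Parp9, Parp14, Parp10 and Parp12 against the mean log2 CPM of 33 interferon-stimulated genes, 1 point per mouse. Aged mouse 5 stands alone at 5.75 on the horizontal axis in every panel, and the other 11 mice lie between 4.57 and 4.92.

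Exon length moved with the fold changes. Across the 9742 genes tested, longer genes had lower fold changes, with a Spearman's rho of -0.48 across genes, which are not independent replicates. With the genes split by exon length into 5 groups of like size, in the longest, of 4809 bases and more, 54.1% of genes were called lower and 4.98% higher, with a median log2 fold change of -0.30. Parp4, Parp14 and Tnks lie in that group, whereas Parp8, at 3088 bases, lies in the middle group, where 16.99% were called lower. With an offset for the length trend of each library, Parp8 had a log2 fold change of -0.63 (adjusted p = 1.83e-04) and Tnks a smaller one of -0.18 (adjusted p = 0.0390). With that offset in all 12 mice Parp4 was at -0.02 (adjusted p = 0.839) and Parp14 at 0.07 (adjusted p = 0.628), and neither was called. Parp9 and Parp12 were both at 0.40 with the offset, with adjusted p of 0.0179 and 0.0363. With the same offset and the replicate block, in 8 mice, Tnks was at -0.20 (adjusted p = 0.192). The origin of the length trend was not tested.

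**Figure D4:**
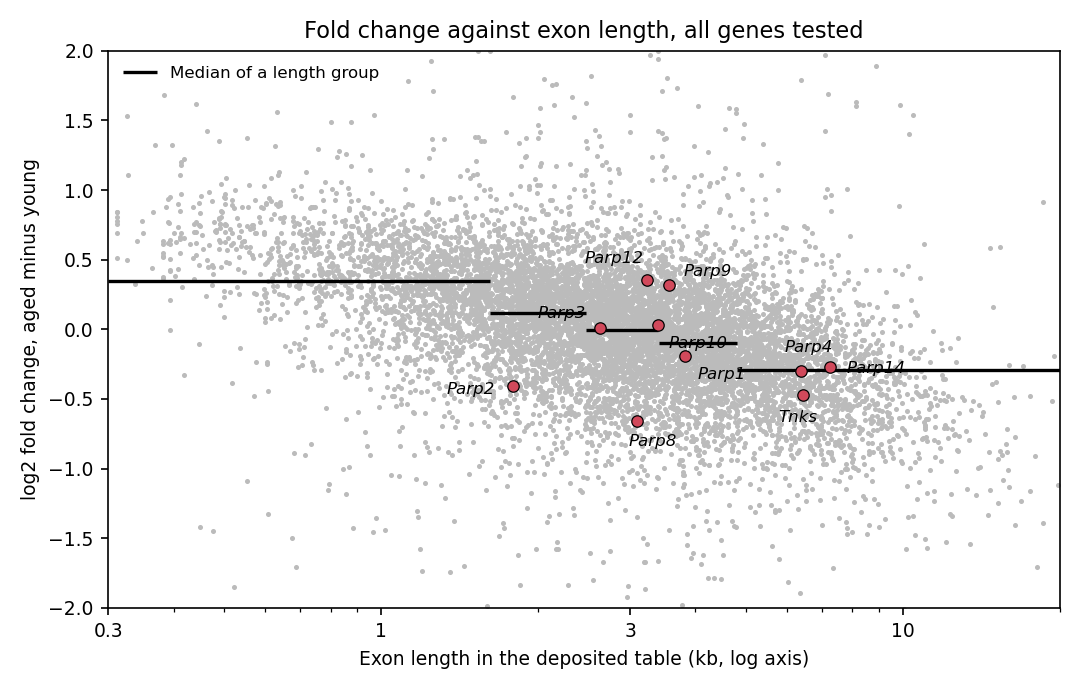
Log2 fold change, aged minus young, against exon length for the genes tested (grey) and the 10 PARP genes (red), with the median of each length group as a black line; 81 of the 9742 genes lie outside the axes. Parp4 and Parp14 lie close to the median of the longest group, -0.30, and Parp8 lies well below the median of its own.

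Levels can be compared between genes only per length. In young mice, CPM per kilobase of exon were highest for Parp4, at 33.8 ± 1.35 (SD, n = 6), followed by Parp8 at 22.4 ± 3.01 and Tnks at 14.3 ± 1.09. Parp14 at 11.9 ± 1.32, Parp10 at 11.1 ± 2.36 and Parp9 at 9.82 ± 0.70 followed, each within the spread of its neighbour. Parp3 at 7.53 ± 1.49, Parp12 at 5.47 ± 0.49, Parp2 at 2.87 ± 1.27 and Parp1 at 0.80 ± 0.42 came last. In aged mice Parp4 at 27.5 ± 1.504 and Parp8 at 14.2 ± 1.16 still led, and Parp9 at 12.3 ± 2.48 and Parp10 at 11.4 ± 2.87 stood beside Tnks at 10.3 ± 0.63 and Parp14 at 9.89 ± 1.01, within their spread. Summed over the 10 members, the level was 103 ± 6.34 CPM per kilobase in aged and 120 ± 9.73 in young mice, and the ranges overlapped, at 98.4 to 115 and 110 to 136. Parp9, Parp10, Parp12 and Parp14 made up 39.1% ± 4.80 of that sum in aged mice, from 34.2% to 48.2%, and 32.0% ± 1.14 in young mice, from 30.1% to 33.4%. The shares of the ages did not overlap. The summed level of these 4 genes itself was 40.5 ± 7.62 CPM per kilobase in aged and 38.4 ± 2.54 in young mice, with overlapping ranges, whereas that of the other 6 members was 62.5 ± 2.52 and 81.7 ± 7.57. These levels are per kilobase but carry no offset for the length trend of each library. No test was run on these sums, since the members were chosen with earlier results known.

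The remaining PARP genes of the table, Parp6, Parp11, Parp16, Tiparp, Tnks2 and Zc3hav1, were all tested. Of these 6, 3 fell, none rose and 3 did not pass the test, with a median log2 fold change of -0.21. Parp6, the closest relative of Parp8, fell from 33.9 ± 8.32 CPM in young to 22.1 ± 2.59 CPM in aged mice, with a log2 fold change of -0.62 ± 0.14 (SE) and an adjusted p of 0.0025, and the ages did not overlap. Parp11, an enzyme of the nuclear envelope, fell by 0.39 ± 0.11 (SE) on the log2 scale (adjusted p = 0.0109), and Zc3hav1, which encodes the antiviral protein ZAP, fell by 0.23 ± 0.07 (SE, adjusted p = 0.0138). Tnks2, encoding the second tankyrase, stood at 172 ± 11.5 CPM in aged and 169 ± 8.76 CPM in young mice. The difference between Tnks and Tnks2 was not tested. With the length offset Parp6 was at -0.63 and still called, and Zc3hav1 was at -0.08 and not called. Without young mice 5 and 6, Parp6 was still called but at -0.39 (adjusted p = 0.0090). With only the 3 aged mice after that gap, none of the 6 was called lower, with Parp6 at -0.53 (adjusted p = 0.0516). Tiparp stood at 71.6 ± 8.43 and 72.1 ± 6.50 CPM and Parp16 at 8.70 ± 0.76 and 9.81 ± 2.06 CPM. Of the RefSeq windows of these genes, the first of the 2 for Parp11 held 1 ISRE match and 1 STAT site match, and that of Parp16 held 1 STAT site match.

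ADP-ribose is removed by hydrolases, of which 4 of 7 listed genes were tested, with 1 higher, 1 lower and 2 not called. Parg, whose protein cuts ADP-ribose chains, fell from 63.7 ± 3.67 to 52.9 ± 5.03 CPM, with a log2 fold change of -0.27 ± 0.07 (SE, adjusted p = 0.0084). Adprh, whose protein frees ADP-ribose from arginine, rose from 98.4 ± 13.9 to 139 ± 14.3 CPM, by 0.50 ± 0.10 (SE) on the log2 scale with an adjusted p of 9.15e-04. The ages did not overlap in either gene. Parg was not called with the length offset, at -0.13, or without aged mice 1 and 5, at -0.19 (adjusted p = 0.0656). Adprhl2 and Oard1 did not pass the test.

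Of 12 listed genes for proteins that bind a PARP, 11 were tested, with 2 higher, 3 lower and 6 not called, and Axin2 was at 0 counts in every library. Mvp, the major vault protein, rose from 53.3 ± 2.998 to 75.5 ± 8.92 CPM, by 0.50 ± 0.08 (SE) on the log2 scale (adjusted p = 2.57e-04). Tep1, a vault and telomerase protein, had 24.2 ± 6.02 CPM in young and 17.4 ± 4.16 CPM in aged mice, with a log2 fold change of -0.48 ± 0.18 (SE, adjusted p = 0.0382). Among proteins that tankyrase 1 binds, Numa1, a spindle pole protein, fell by 0.82 ± 0.12 (SE) on the log2 scale (adjusted p = 1.21e-04) and Sh3bp2, an adaptor of myeloid signalling and osteoclasts, fell by 0.45 ± 0.07 (SE, adjusted p = 3.47e-04). Axin1, Terf1 and Rnf146, also tankyrase partners of this list, were not called, at -0.09, -0.11 and -0.0063. Tep1 was not called with the length offset, at -0.09, or without young mice 5 and 6, at -0.25 (adjusted p = 0.283), and Numa1 was still called with the offset, at -0.49.

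Base excision and strand break repair genes, the pathway that PARP1 and PARP2 serve, were mostly not called. Of 16 listed, 12 were tested, with 1 higher, 1 lower and 10 not called, and a median log2 fold change of -0.06. Mpg, a DNA glycosylase of low level, rose by 0.65 ± 0.24 (SE) on the log2 scale (adjusted p = 0.0394), and Neil3, a glycosylase of dividing cells, fell by 0.89 ± 0.21 (SE, adjusted p = 0.0031). Mpg was not called by DESeq2 (adjusted p = 0.0701), with the length offset (adjusted p = 0.118) or without young mice 5 and 6, at 0.41 (adjusted p = 0.195), and Neil3 was still called without those 2 mice but at -0.53 (adjusted p = 0.0185). Of 20 replication and mitosis genes, 3 were called lower, none higher and 17 were not called. The 3 were Mki67, the proliferation marker, with a log2 fold change of -2.01 ± 0.29 (SE), Top2a at -0.62 ± 0.22 and Bub1 at -0.53 ± 0.21. Top2a and Bub1 were not called without young mice 5 and 6, at -0.43 and -0.26.

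For the other enzymes that spend NAD, 8 of 10 listed were tested, with 2 higher, 1 lower and 5 not called. Cd38, the surface NAD hydrolase, rose from 4.09 ± 0.79 CPM in young to 29.7 ± 5.80 CPM in aged mice, and its relative Bst1 rose by 0.76 ± 0.16 (SE) on the log2 scale (adjusted p = 0.00154). Sirt1, a nuclear deacetylase, fell by 0.30 ± 0.08 (SE, adjusted p = 0.0078), while Sirt2, Sirt3, Sirt5, Sirt6 and Sirt7 did not pass the test. Sirt1 was not called with the length offset, at -0.21 (adjusted p = 0.0599), or without aged mice 1 and 5, at -0.24 (adjusted p = 0.0525). Of 10 listed genes of NAD supply 4 were tested, with 1 higher and 2 lower. Nampt, the rate-limiting enzyme of the salvage of nicotinamide, rose from 156 ± 28.2 to 199 ± 29.6 CPM, by 0.36 ± 0.12 (SE) on the log2 scale (adjusted p = 0.0273). It was not called without young mice 5 and 6, at 0.19, or without aged mice 1 and 5, at 0.30 (adjusted p = 0.0884). With only the aged mice from before or from after the gap in alignment file numbers it was at 0.27 and 0.45, not called in either. Qprt, of synthesis from tryptophan, fell by 1.74 ± 0.38 (SE, adjusted p = 0.0020) and Nmrk1, a nicotinamide riboside kinase, by 0.58 ± 0.19 (SE, adjusted p = 0.0229). The level of Qprt was low, at 3.24 CPM in young and 0.96 CPM in aged mice from 5 to 55 counts, and the ages overlapped. Nmrk1 was not called without young mice 5 and 6, at -0.32 (adjusted p = 0.206), or without aged mice 1 and 5, at -0.56 (adjusted p = 0.0673). Nadsyn1 was not called.

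Of 38 interferon-stimulated genes and their transcription factors, 33 were tested, with 16 higher, 3 lower and 14 not called, and a median log2 fold change of 0.44. The largest rise was that of Ifit3, at 1.37 ± 0.45 (SE, adjusted p = 0.0211), and its size rested on aged mouse 5, since without that mouse it was 0.60, still called (adjusted p = 0.0131). It was not called by limma-voom (adjusted p = 0.0781) or without young mice 5 and 6, at 1.20 (adjusted p = 0.103). Eif2ak2, which encodes the antiviral kinase PKR, fell by 0.72 ± 0.14 (SE, adjusted p = 8.28e-04), and the others that fell were Mx1 and Samd9l, at -1.84 and -0.54. Samd9l was not called with the length offset, at -0.32 (adjusted p = 0.186), and neither gene was called without young mice 5 and 6, at -1.12 (adjusted p = 0.198) for Mx1 and -0.32 (adjusted p = 0.219) for Samd9l. Without young mice 5 and 6, 7 genes of this list were called higher and 1 lower. In that fit 14.1% of all genes were called higher and 17.9% lower, against 22.4% and 23.0% in the main fit.

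**Figure D5:**
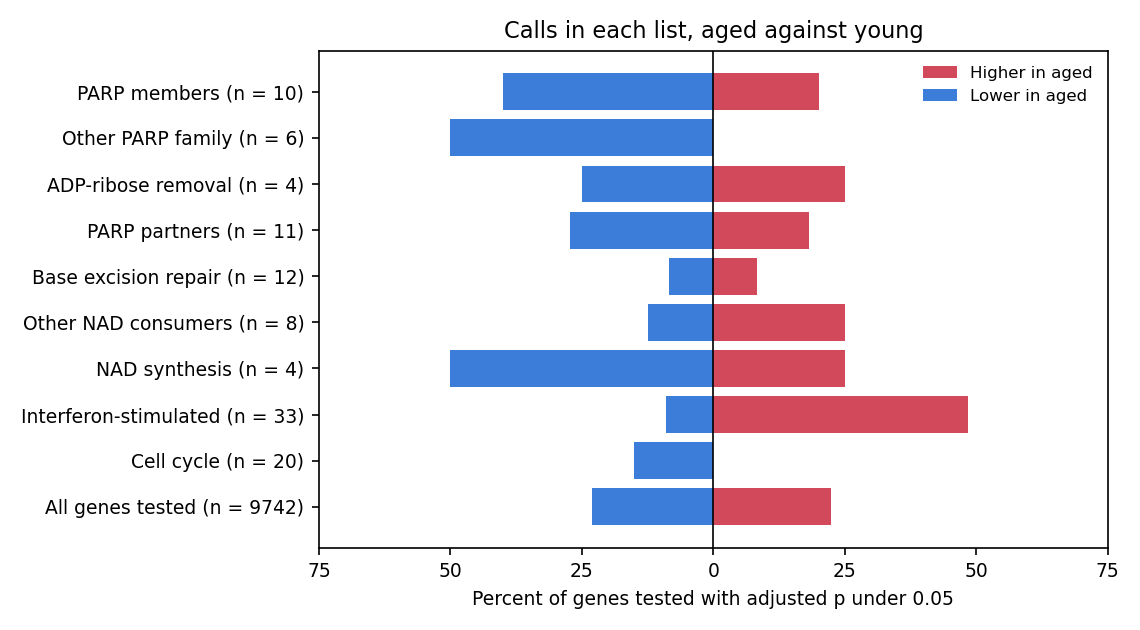
Percent of the genes tested in each list that were called higher (right, red) or lower (left, blue) in aged mice, with all genes tested in the bottom row at 22.4% and 23.0%. Of the lists plotted, the interferon-stimulated list extends farthest to the higher side, with 16 of 33 genes, and the other PARP genes hold only lower calls, 3 of 6.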

How the data were processed

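The authors deposited raw counts of fragments per gene, obtained with featureCounts 2.0.0 over the exons of a UCSC annotation of mm10, using strand (reverse), pairs with both ends on the same chromosome, and only alignments of quality 60 or more. The sources used here do not name the aligner. Genes of few fragments at that quality have imprecise values, and intervals from counting cover counting error only. Exon lengths and coordinates are those of the deposited table.

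Groups were taken from the sample labels. Genes passing filterByExpr were fitted with edgeR 4.0.16 (R 4.3.3) as a quasi-likelihood test of aged against young with TMM factors, and p-values were adjusted by Benjamini-Hochberg over all 9742 genes tested. The biological coefficient of variation was 15.7%. Standard errors are the absolute log2 fold change divided by the root of F. DESeq2 1.42.0, limma 3.58.1 voom, other scalings and filters, a gene length offset, thinning to 4613239 counts, and fits without single mice were alternatives. The thinning was a random draw that was not repeated. Correlations were computed on log2 CPM (prior count 2), with p-values from all 720 orders of 6 mice. The fit was tested on simulated data. Promoter windows come from RefSeq (GRCm38.p6) and were scanned in Python 3.11.15; windows of Parp9, Parp10, Parp14 and Tnks were not used here. The labels do not say how the mice were housed or processed, and p-values measure the spread between these mice. The numbers in the alignment file names are 11 to 16 for young and 17 to 26 for aged mice. What they record is not given in the sources used here, and anything that follows them and age cannot be told apart. No 2 libraries of an age agreed within sampling noise.

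The members and gene lists were chosen with earlier results of these data known. All 10 members are named, and from each related list the tested genes that rose most, fell most or had the lowest p, plus uncalled or opposing genes if there were at most 5. 1 further base excision repair gene was left out of that list and is not reported here. Marker lists are given by summed levels and, for some, counts of calls, genes of the sort, single genes of the monocyte list or genes at 0. Of the PARP partners, the uncalled genes Axin1, Terf1 and Rnf146 are named in addition.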

Additional observations from a re-analysis of the deposited data

Results flagged for a closer look

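In 20 groups of 6 mice, 10 members at 2 ages, 4 held a mouse whose gap to its nearest neighbour exceeded Dixon's 95% critical value relative to the range of the group, and chance gives about 1 in 20. All 4 were aged mice. Parp2 was 5.95 CPM in aged mouse 7, against 3.70 CPM in the next mouse. Parp8 was 50.6 CPM in aged mouse 6, against 43.9 CPM, which was still below every young mouse. Parp10 was 57.8 CPM and Parp14 85.9 CPM in aged mouse 5, against 38.1 and 72.2 CPM in the next mice, and the same mouse had the highest interferon-stimulated mean.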

How the results depend on the processing

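Parp8 kept its direction and call in 28 of 28 alternatives and Tnks in 27, the exception being the replicate block with the length offset. The count of members called lower, 4, was 4 whichever mouse was left out, 5 after thinning, where Parp2 was also called (-0.68, adjusted p = 0.0482), 3 with aged mice from after the gap, and fell to 2 with the length offset and to 2 with the length offset and replicate block together. Over all genes, 23.0% were called lower in the main fit, 22.1% after thinning and 15% with aged mice from after the gap. The share was 16% with the length offset and 9.52% with offset and block. With the length offset Parp14 was at 0.070, above 0. The count of members called higher, 2, was 1 with limma-voom, without a filter, thinned to the smallest total, and with aged mice from before or from after the gap in alignment numbers only, and it was 0 without TMM factors. The shares of all genes called higher in these fits were 21.6%, 14.6%, 21.7%, 16.5%, 15.3% and 17.3%, in that order. Over the 12 fits that each left out 1 mouse the count of members called higher lay between 0 and 2. Parp9 lost its call without aged mouse 5 or 6 or young mouse 2, 9 or 10, and Parp12 without aged mouse 2, 4 or 5 or young mouse 1, 5, 6, 9 or 10. Parp14 was not called with aged mice from after the gap, at -0.18 (adjusted p = 0.216). In fits added after the data were seen, the count called higher was 0 without young mice 5 and 6 and 0 without aged mice 1 and 5, beside 14.1% and 17.5% of all genes. Without TMM factors, 37.8% of called genes were higher, against 49.4% with them.

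The members not called changed sign with the setting. Parp1 was at 0.12 with aged mice from before the gap, and between -0.39 and 0.074 with each mouse left out. It was 0.37 and Parp2 0.080 without young mice 5 and 6. Parp3 was at -0.089 without TMM factors, -0.0058 with the length offset, -0.0028 with aged mice from after the gap, -0.033 without aged mice 1 and 5, and between -0.052 and 0.091 with each mouse left out. Parp10 was at -0.0020 with limma-voom, -0.076 without TMM factors, -0.091 with aged mice from before the gap, -0.13 without aged mice 1 and 5, and between -0.12 and 0.11 with each mouse left out. Leaving out mice in turn, r with the interferon mean lay between -0.20 and 0.99 for Parp14 in aged mice, between -0.89 and 0.067 for Parp9 and between -0.0045 and 0.73 for Parp12 in young mice. Without TMM factors it was 0.65 for Parp9 and 0.51 for Parp10 in young mice. The causes were not tested.

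Replicate numbers 1, 2, 5 and 6 occur at both ages, and what a shared number records is not stated. Same-numbered mice did not deviate together, with r from -0.25 to -0.07, against -0.26 to 0.22 for other pairs. So few pairs cannot show whether same-numbered mice had anything else in common. With the replicate block over these 8 mice, 0 members were called higher and 4 lower. The 4 included Parp2, at -0.81 (adjusted p = 0.0338), and not Parp14 (adjusted p = 0.0988). Parp3 was at -0.18. With the block and the length offset, 0 members were called higher and 2 lower, beside 7.05% and 9.52% of all genes. The 2 were Parp8 and Parp2, with Parp2 at -0.98 (adjusted p = 0.0280). In that fit Parp3 was at -0.19, Parp4 at 0.00072 and Parp14 at 0.12. The same 8 mice without the block gave 1 higher and 5 lower, with Parp3 at -0.19. Over all genes, 1586 were called higher and 1860 lower with the block, against 2088 and 2306 without it in the same mice.

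Parp1 and Parp2 had 7 to 95 counts per library. Among related genes, Tep1 and Mpg kept their calls in 5 of the 12 fits that left out a mouse, Bub1 in 3, Samd9l and Top2a in 6, Nampt in 8 and Nmrk1 in 9.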

Other observations

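Parp1 was the lowest of the 10 members per length, and the base excision genes Apex1 and Ung were also near 0, at 0.65 ± 0.38 and 0.15 ± 0.19 CPM (SD, n = 6) in aged and 0.31 ± 0.27 and 0.07 ± 0.09 CPM in young mice. The reason was not tested.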
